A study of Mus musculus with 10 samples.

Results

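The 7 genes described here, Lpl, Cd36, Msr1, Fabp4, Fabp5, Plin2 and Pparg, take up, carry and store lipid in cells, and all 7 listed symbols were found among the 19938 genes measured. They were picked by symbol for these roles, with earlier results of these data known, and each is represented by its brightest probe set over the 10 arrays. RNA came from splenic cDC2 (type 2 conventional dendritic cells, which present antigen to helper T cells), sorted after CD11c enrichment and hybridised as single-colour arrays. In Notch2-11cKO SRBC (n = 3), CD11c-Cre+ Notch2f/f mice had been given 200000000 sheep red blood cells (SRBC), which act as a particulate antigen, by intraperitoneal injection 24 hours before. Notch2-11cKO untreated (n = 2) had the same genotype without SRBC. WT SRBC (n = 3) were wild-type mice given the same SRBC dose for the same time, and WT untreated (n = 2) were wild-type mice left alone. Cre driven by CD11c acts in dendritic cells and in other CD11c-expressing cells, and age, sex and strain are not given in the labels used here. Nothing there says that the arrays of a group came from separate mice, so p-values measure the spread between arrays, which may be technical in part.

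Myeloid cells obtain fatty acids in several steps. Lipoprotein lipase releases them from triglyceride-rich lipoproteins outside the cell, scavenger receptors take up fatty acids and modified lipoproteins, and fatty acid-binding proteins carry the acids through the cytosol. Surplus lipid is esterified into droplets coated by perilipins. The nuclear receptor PPAR-gamma binds fatty acid derivatives and is known to raise transcription of several of these genes in macrophages and adipocytes.

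Array medians lay between 29.5 and 31.7 intensity units on all 10 arrays, whose number limits precision. Pearson r across the 9969 brighter genes was 0.928 and 0.929 between WT SRBC 1 and the other WT SRBC arrays, against 0.984 between those, and 0.936 and 0.947 between Notch2-11cKO SRBC 3 and its group, against 0.972. Both arrays therefore stood apart, and results that turn on them are given with and without them. The Notch2 probe set gave log2 8.37 and 8.17 in Notch2-11cKO untreated and 8.11 and 8.14 in WT untreated, and whether it lies in the stretch deleted by Cre is unknown, so it is no check of genotype. Of 10 cDC2 and conventional dendritic cell markers, 3 were lower in Notch2-11cKO without treatment and 7 did not pass. Clec4a4 and Esam, which mark one subset of cDC2, differed by -4.09 ± 0.35 and -1.84 ± 0.33 on the log2 scale, and Cd4 by -1.03 ± 0.22. Among those that did not pass, the cDC2 marker Sirpa differed by 0.18 ± 0.20, Itgax (CD11c) by 0.34 ± 0.25 and the class II gene H2-Ab1 by 0.03 ± 0.16. The rest were negative, with Irf4 at -1.49 ± 0.39 (adjusted p = 0.0528 in limma), Dpp4 at -0.96 ± 0.40, Flt3 at -0.70 ± 0.28 and Zbtb46 at -0.42 ± 0.21. The mean of the list was 7.84 to 8.01 in Notch2-11cKO untreated and 7.68 to 7.95 in Notch2-11cKO SRBC. It was 8.90 to 8.96 in WT untreated and 8.34 to 8.56 in WT SRBC.

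Promoter sequence for 3 of the 7 genes was in the RefSeq-derived table of GRCm38.p6. The 250 bases before the start are shown for Plin2 and Cd36, the droplet coat and the receptor, and for 1 of the 3 listed starts of their regulator Pparg. Capitals mark AGGTCA, the half-site that PPAR and other nuclear receptors bind, and GTGGGAA, the core bound by the Notch partner RBPJ, searched on both strands. The 2 motifs do not overlap in these windows. Sequences run 5′ to 3′ on the strand of the gene, at chr4:86670060-86670309 (minus) for Plin2, chr5:17835897-17836146 (minus) for Cd36 and chr6:115421816-115422065 (plus) for Pparg.
Plin2: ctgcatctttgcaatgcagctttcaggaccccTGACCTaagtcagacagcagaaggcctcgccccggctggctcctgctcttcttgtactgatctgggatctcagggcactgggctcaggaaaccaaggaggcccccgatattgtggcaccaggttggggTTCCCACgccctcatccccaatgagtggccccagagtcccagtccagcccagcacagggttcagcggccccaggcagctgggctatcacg
Cd36: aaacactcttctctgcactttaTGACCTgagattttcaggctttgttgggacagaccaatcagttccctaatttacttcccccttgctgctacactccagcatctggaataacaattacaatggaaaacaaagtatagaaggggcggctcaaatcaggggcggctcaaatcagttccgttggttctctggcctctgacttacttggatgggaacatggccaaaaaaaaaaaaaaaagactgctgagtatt
Pparg: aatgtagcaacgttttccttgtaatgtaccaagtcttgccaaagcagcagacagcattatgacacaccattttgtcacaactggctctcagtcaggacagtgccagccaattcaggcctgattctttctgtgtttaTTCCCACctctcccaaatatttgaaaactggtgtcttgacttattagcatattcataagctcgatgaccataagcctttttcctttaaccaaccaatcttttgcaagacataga

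Plin2 held AGGTCA on the opposite strand at -218 to -213 from the start and GTGGGAA on the opposite strand at -90 to -84. Cd36 held AGGTCA at -228 to -223, and the Pparg start shown held GTGGGAA at -114 to -108, both on the opposite strand. The other 2 Pparg starts, with windows at chr6:115360894-115361143 and chr6:115362099-115362348, each held 1 AGGTCA, at -28 to -23 and at -9 to -4, and no GTGGGAA. Which start is used in these cells was not tested. Among 32851 promoters of this length, 14% held AGGTCA and 5.42% held GTGGGAA. No window of these genes held 2 exact copies of AGGTCA spaced by 1 base, the consensus PPAR element. Only 0.0335% of all promoters did, and looser matches were not searched. A match describes the letters of the window and not a bound site.

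In untreated mice, 6 of the 7 lipid genes were higher in Notch2-11cKO than in WT cDC2 and none was lower, at a limma adjusted p below 0.05 over all genes. Of all genes tested, 2.95% were higher and 2.16% were lower by the same rule. The median log2 difference of the 7 was 3.00, against -0.02 over all genes. Every Notch2-11cKO array lay above every WT array for all 7 genes, an arrangement that 22.0% of all genes showed with these small groups. After SRBC 6 of the 7 were again higher in Notch2-11cKO (background 3.36% higher and 1.96% lower), with a median difference of 1.95 against -0.02 over all genes. All but Fabp5 had no overlap between genotypes after SRBC, as did 9.96% of all genes. At an unadjusted p below 0.05 stood 14.6% of all genes without treatment and 17.4% after SRBC. In untreated WT cells Lpl, Cd36, Msr1, Fabp4 and Pparg averaged 3.95, 4.44, 4.49, 4.57 and 4.96, below the median gene at 5.06, and with no detection calls their fold changes may be understated. Errors after ± are standard errors of the fit for differences and SD for group means.

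**Figure D1:**
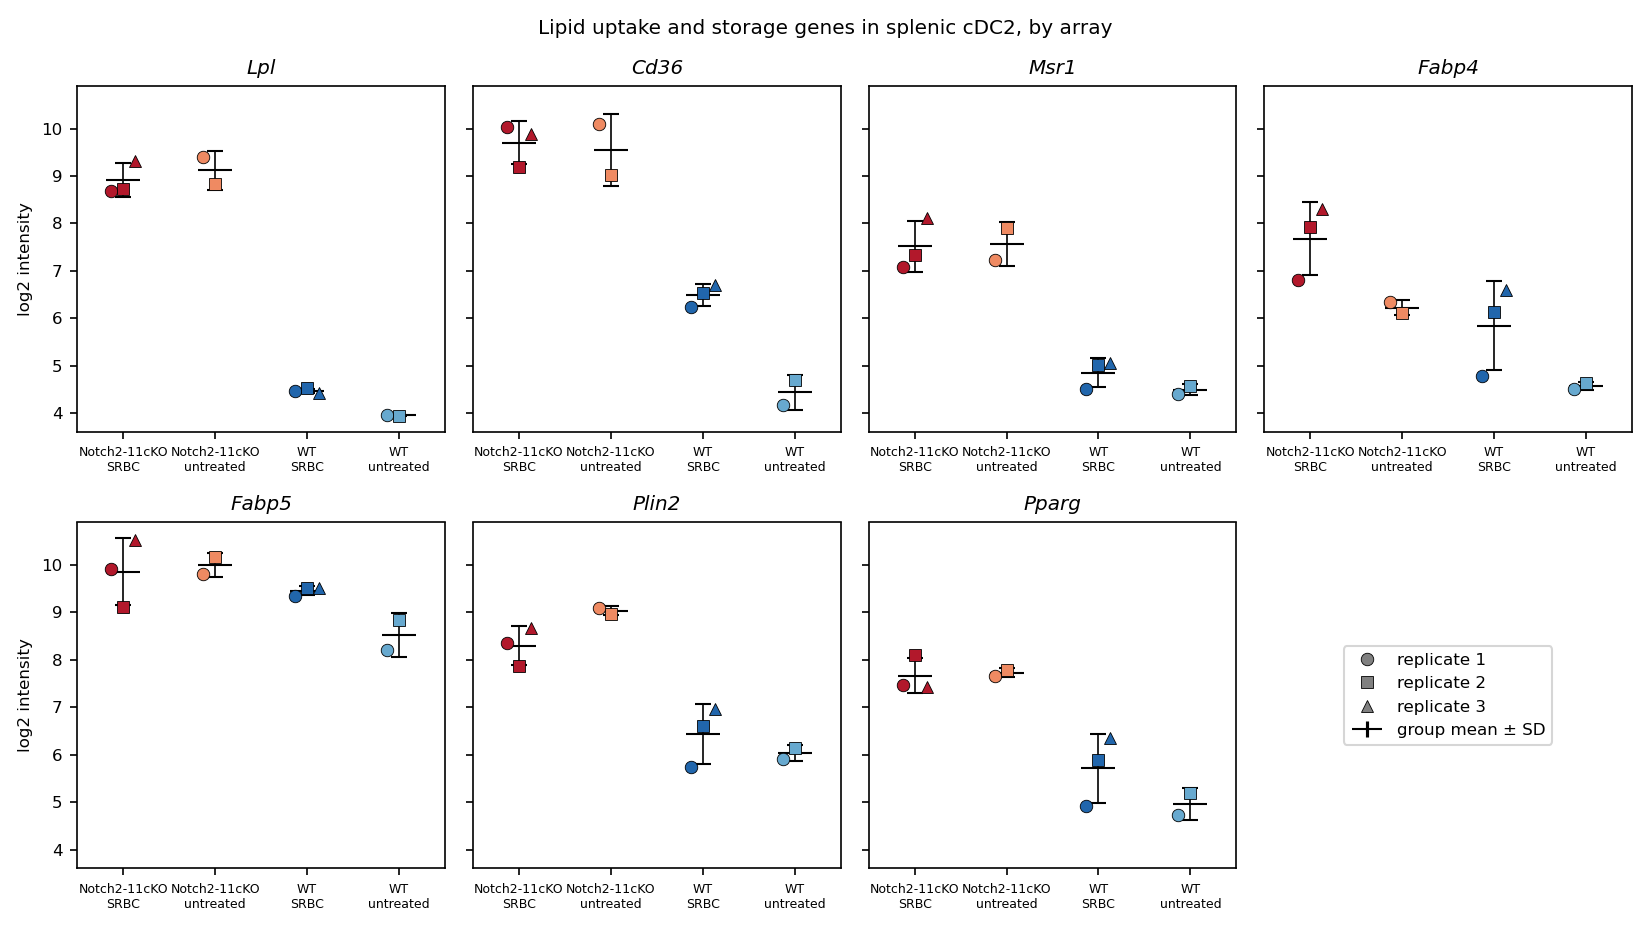
Log2 intensity of each gene on each array (vertical axis), by group (horizontal axis). Marker shapes give the replicate number and the bar with whiskers the group mean ± SD (n = 3 for SRBC, n = 2 for untreated). For Lpl, Cd36, Msr1, Plin2 and Pparg all Notch2-11cKO arrays lie above all WT arrays. Levels of different genes come from different probes and are not comparable.

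Lpl encodes lipoprotein lipase, the secreted enzyme that hydrolyses lipoprotein triglycerides. Its log2 intensity was 8.68, 8.72 and 9.33 in Notch2-11cKO SRBC, 9.40 and 8.83 in Notch2-11cKO untreated, 4.46, 4.52 and 4.43 in WT SRBC and 3.96 and 3.94 in WT untreated (probe set 10572130). The genotypes were far apart, and within WT the 3 SRBC arrays sat just above the 2 untreated ones. Without treatment Lpl was higher in Notch2-11cKO by 5.17 ± 0.25 (36.0-fold, adjusted p = 1.52e-06 in limma). After SRBC the difference was 4.44 ± 0.21 (21.7-fold, adjusted p = 7.29e-07 in limma). The step with SRBC in WT was 0.52 ± 0.23 and did not pass (adjusted p = 0.283 in limma).

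Cd36, a class B scavenger receptor, takes up long-chain fatty acids and oxidised low-density lipoprotein. It read 10.03, 9.19 and 9.89 in Notch2-11cKO SRBC, 10.09 and 9.01 in Notch2-11cKO untreated, 6.24, 6.54 and 6.70 in WT SRBC and 4.18 and 4.69 in WT untreated, all as log2 intensity (probe set 10528207). The Notch2-11cKO arrays spanned about the same range with and without SRBC, while the WT groups did not overlap each other. Notch2-11cKO exceeded WT by 5.12 ± 0.37 without treatment (34.7-fold, adjusted p = 1.59e-05 in limma) and by 3.21 ± 0.30 after SRBC (9.25-fold, adjusted p = 0.0001 in limma).

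Msr1, the class A scavenger receptor, binds modified lipoproteins and other polyanions. Its values were 7.08, 7.34 and 8.12 in Notch2-11cKO SRBC, 7.23 and 7.89 in Notch2-11cKO untreated, 4.50, 5.01 and 5.05 in WT SRBC and 4.41 and 4.57 in WT untreated (log2 intensity, probe set 10578264). Within each genotype the treated and untreated arrays overlapped. Higher levels in Notch2-11cKO amounted to 3.07 ± 0.33 without treatment (8.42-fold, adjusted p = 0.000257 in limma) and 2.66 ± 0.27 after SRBC (6.32-fold, adjusted p = 0.000188 in limma).

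Both cytosolic carriers gave smaller differences. Fabp4, the fatty acid-binding protein of adipocytes and macrophages, stood at log2 6.81, 7.93 and 8.30 in Notch2-11cKO SRBC, 6.34 and 6.11 in Notch2-11cKO untreated, 4.79, 6.12 and 6.60 in WT SRBC and 4.51 and 4.63 in WT untreated (probe set 10497265). Its SRBC groups were the most spread, and WT SRBC 1 lay close to the untreated WT arrays while the other 2 reached the range of untreated Notch2-11cKO. The genotype difference was 1.84 ± 0.44 after SRBC (3.58-fold, adjusted p = 0.0334 in limma) and 1.65 ± 0.54 without treatment, where it did not pass (3.14-fold, adjusted p = 0.131 in limma). The call after SRBC was made under 8 of 18 alternative settings. Leaving out any single array other than WT SRBC 3 or Notch2-11cKO SRBC 1 ended it, with adjusted p between 0.0528 and 0.118. Without WT SRBC 1 the difference after SRBC was 1.32 (adjusted p = 0.0528 in limma), without both arrays that stood apart it was 1.01 (adjusted p = 0.0529), and in a fit of the SRBC groups alone adjusted p was 0.101. The untreated difference, in turn, passed with the replicate number as a block (adjusted p = 0.0171), in a fit of the untreated groups alone (adjusted p = 0.000433), without WT SRBC 1 (adjusted p = 0.0269), without both arrays that stood apart (adjusted p = 0.00401) and with the immediate-early covariate described below (adjusted p = 0.00323).

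Fabp5, the epidermal-type fatty acid-binding protein, measured log2 9.92, 9.12 and 10.53 in Notch2-11cKO SRBC, 9.81 and 10.17 in Notch2-11cKO untreated, 9.35, 9.52 and 9.51 in WT SRBC and 8.20 and 8.85 in WT untreated (probe set 10585699). Notch2-11cKO SRBC 2 lay below all WT SRBC arrays, so the genotypes overlapped after SRBC. Untreated Notch2-11cKO exceeded untreated WT by 1.47 ± 0.37 (2.77-fold, adjusted p = 0.0462 in limma), and after SRBC the difference was 0.40 ± 0.31 with a 95% interval of -0.27 to 1.07 (adjusted p = 0.585). The untreated call was made under 10 of 18 settings, and ended on leaving out WT untreated 1 (adjusted p = 0.368), WT untreated 2 (adjusted p = 0.0875), Notch2-11cKO untreated 1 (adjusted p = 0.143) or Notch2-11cKO untreated 2 (adjusted p = 0.289). It was lost as well without WT SRBC 2 (adjusted p = 0.0695), WT SRBC 3 (adjusted p = 0.0697) or Notch2-11cKO SRBC 1 (adjusted p = 0.0702). A second probe set for Fabp5 (10490838), fitted with all 21789 single-symbol probe sets, gave 1.51 ± 0.32 without treatment (adjusted p = 0.0215) and 0.63 ± 0.26 after SRBC (adjusted p = 0.238). RefSeq also lists a Fabp5-like pseudogene, and signal from any near-identical copy could not be separated from Fabp5.

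Plin2 encodes perilipin 2, the coat protein of lipid droplets in most cells other than adipocytes. Its log2 intensity came to 8.35, 7.87 and 8.68 in Notch2-11cKO SRBC, 9.10 and 8.97 in Notch2-11cKO untreated, 5.74, 6.60 and 6.97 in WT SRBC and 5.92 and 6.15 in WT untreated (probe set 10514221). All 3 treated Notch2-11cKO arrays lay below both untreated ones, and the WT groups overlapped because WT SRBC 1 was the lowest WT array. The genotype difference was 3.00 ± 0.36 without treatment (8.00-fold, adjusted p = 0.000502 in limma) and 1.86 ± 0.30 after SRBC (3.64-fold, adjusted p = 0.00347 in limma).

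Pparg encodes PPAR-gamma, the one transcription factor of the group. Readings were 7.48, 8.10 and 7.43 in Notch2-11cKO SRBC, 7.66 and 7.80 in Notch2-11cKO untreated, 4.91, 5.88 and 6.35 in WT SRBC and 4.72 and 5.19 in WT untreated (log2 intensity, probe set 10540897). WT SRBC 1 lay within the untreated WT range and the other 2 WT SRBC arrays above it, while the Notch2-11cKO groups overlapped. Notch2-11cKO was higher by 2.77 ± 0.39 without treatment (6.81-fold, adjusted p = 0.00161 in limma) and by 1.95 ± 0.32 after SRBC (3.87-fold, adjusted p = 0.00435 in limma). Lpl, Cd36, Msr1, Plin2 and Pparg, 5 of the 7, passed in both genotype comparisons under each of the 18 alternative settings.

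**Figure D2:**
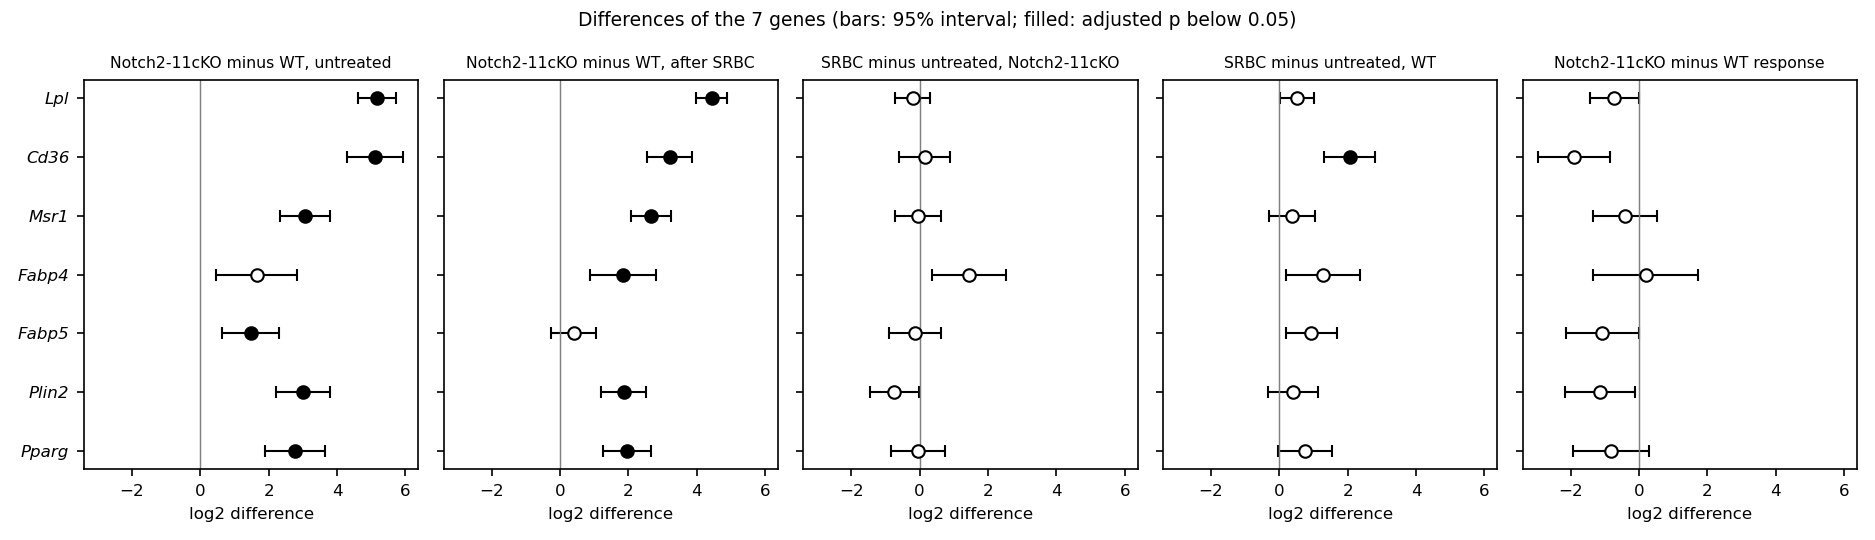
Log2 differences of the 7 genes (points) with 95% intervals from the limma fit (bars) in the 5 comparisons, with filled points for an adjusted p below 0.05. Both genotype comparisons have 6 filled points each, the WT response has 1 (Cd36), and the Notch2-11cKO response and the difference between responses have none.

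The order of the 4 group means differed between the genes. For Lpl, Msr1, Plin2 and Pparg both Notch2-11cKO groups stood above both WT groups, with Notch2-11cKO untreated highest and WT untreated lowest. The Notch2-11cKO groups overlapped for Lpl, Msr1 and Pparg, and the WT groups for Msr1, Plin2 and Pparg. Cd36 had the same split, with Notch2-11cKO SRBC (9.70 ± 0.45, SD, n = 3) and Notch2-11cKO untreated (9.55 ± 0.76, SD, n = 2) overlapping at the top. Fabp4 instead placed Notch2-11cKO SRBC first (7.68 ± 0.78, SD, n = 3), ahead of Notch2-11cKO untreated (6.22 ± 0.17, SD, n = 2) and WT SRBC (5.84 ± 0.94, SD, n = 3), which overlapped each other, and WT untreated (4.57 ± 0.08, SD, n = 2). Fabp5 ran from Notch2-11cKO untreated (9.99 ± 0.25, SD, n = 2) and Notch2-11cKO SRBC (9.86 ± 0.71, SD, n = 3) through WT SRBC (9.46 ± 0.09, SD, n = 3) to WT untreated (8.52 ± 0.46, SD, n = 2), and Notch2-11cKO SRBC overlapped both Notch2-11cKO untreated and WT SRBC.

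Cd36 alone among the 7 genes passed in limma between treated and untreated WT cells. It was higher in WT SRBC than in WT untreated by 2.06 ± 0.34 (4.17-fold, adjusted p = 0.00725 in limma), and the other 6 genes did not pass. The background was 1.82% of genes higher and 1.97% lower. The median difference of the 7 was 0.76 against 0.02 over all genes, and the sign was positive for all 7. Lpl, Cd36, Fabp4 and Fabp5, 4 of the 7, had an unadjusted p below 0.05, against 16.8% of all genes. Besides Cd36, the groups did not overlap for Lpl, Fabp4 (1.27 ± 0.49, adjusted p = 0.211) and Fabp5 (0.94 ± 0.34, adjusted p = 0.176), so 4 of the 7 had every SRBC array above every untreated array, as did 17.8% of all genes. Pparg differed by 0.76 ± 0.36 (adjusted p = 0.324), Plin2 by 0.40 ± 0.33 (adjusted p = 0.616) and Msr1 by 0.36 ± 0.30 (adjusted p = 0.621).

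WT SRBC 1 was the lowest of its group for 6 of these genes, Lpl being the exception. Without that array Fabp4 (1.79, adjusted p = 0.0207 in limma) and Pparg (1.16, adjusted p = 0.0277) passed as well as Cd36. Leaving out Notch2-11cKO SRBC 3 as well, 5 of the 7 passed, with Fabp5 (0.99, adjusted p = 0.0323) and Plin2 (0.75, adjusted p = 0.0355) added, and 2300 genes passed in all, against 756 on all arrays. Cd36 no longer passed when WT untreated 1 was left out (1.80, adjusted p = 0.129). Nor did it pass with the mean of 22 immediate-early genes, which can respond to tissue digestion, as a covariate (1.77, adjusted p = 0.156). That mean fell with treatment without overlap, to 8.62 to 9.11 in WT SRBC against 9.66 to 9.75 in WT untreated, so this fit cannot separate it from SRBC. The macrophage marker mean moved the other way, at 6.06 to 6.56 in WT SRBC against 5.34 to 5.55 in WT untreated. Of its 12 markers 3 were higher in limma, Spic (2.11, adjusted p = 0.0211), Vcam1 (1.75, adjusted p = 0.00347) and C1qc (1.72, adjusted p = 0.0127). None was lower, 10 of the 12 differences were positive, and 8 had an unadjusted p below 0.05. The platelet and megakaryocyte mean rose as well, at 5.13 to 5.18 in WT SRBC against 4.67 to 4.69 in WT untreated, with none of its 5 markers called in limma (2 at an unadjusted p below 0.05). The eosinophil and neutrophil mean was 4.91 to 5.18 in WT SRBC against 4.11 to 4.31 in WT untreated. S100a8 of the granulocyte list was higher by 2.85 ± 0.46 (adjusted p = 0.00658 in limma). S100a9 differed by 2.50 ± 0.68 (adjusted p = 0.0684 in limma) and Prg2 by 0.45 ± 0.22. The rest of that list hardly moved, with Ly6g at 0.15, Siglecf at 0.04, Epx at 0.02 and Ngp at -0.18. The erythroid mean was 4.65 to 4.91 in WT SRBC against 4.23 to 4.43 in WT untreated. Of its 4 markers Car1 was higher by 1.06 ± 0.26 (adjusted p = 0.0494 in limma). Alas2 differed by 0.44 ± 0.16, Klf1 by 0.32 ± 0.18 and Ermap by -0.15 ± 0.16. The part of these lists in the Cd36 rise was not tested.

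In Notch2-11cKO cDC2 none of the 7 genes passed after SRBC in limma (background 0.140% higher and 0.166% lower). At an unadjusted p below 0.05 there were 2, Fabp4 and Plin2, against 10% of all genes. Fabp4 was higher in Notch2-11cKO SRBC by 1.46 ± 0.49 (adjusted p = 0.320) with no overlap, as for 16.1% of all genes. Plin2 was lower by 0.74 ± 0.33 (difference -0.74, 95% interval -1.47 to -0.01, adjusted p = 0.496) with no overlap, as for 12.2% of all genes. Leaving out both arrays that stood apart, its difference was -0.93 and passed (adjusted p = 0.0438 in limma). The other 5 lay between -0.21 (Lpl) and 0.15 (Cd36). Their 95% intervals reached from -0.88 (the lower bound of Fabp5) to 0.90 (the upper bound of Cd36), so a change within the interval of a gene was not excluded for it. The immediate-early mean was 8.54 to 9.36 in Notch2-11cKO SRBC against 9.68 to 9.72 in Notch2-11cKO untreated, again without overlap. With it as a covariate, which cannot be separated from SRBC, no gene passed and all 7 differences were negative. Fabp4 was then -0.11, Plin2 -1.48, Msr1 -0.92, Fabp5 -0.72, Lpl -0.64, Pparg -0.53 and Cd36 -0.0745. The platelet and megakaryocyte mean was 5.71 to 5.81 in Notch2-11cKO SRBC against 5.05 to 5.24 in Notch2-11cKO untreated. The eosinophil and neutrophil mean was 5.23 to 5.66 in Notch2-11cKO SRBC against 4.20 to 5.08 in Notch2-11cKO untreated, and S100a8 was higher by 3.07 ± 0.46 (adjusted p = 0.0263 in limma). Of the same list S100a9 differed by 1.88 ± 0.68 (adjusted p = 0.36 in limma), Ngp by 0.71 ± 0.27 and Prg2 by 0.55 ± 0.22. Siglecf differed by 0.17, Epx by -0.12 and Ly6g by -0.18. The part of these lists in the Fabp4 and Plin2 values was not tested.

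**Figure D3:**
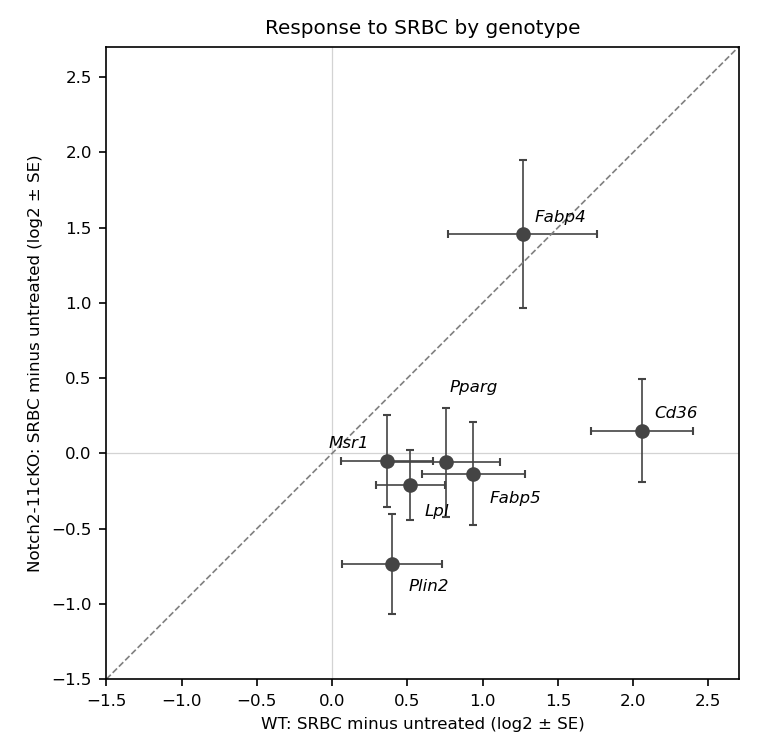
Log2 difference between SRBC and untreated cells in Notch2-11cKO (vertical axis) against that in WT (horizontal axis) for each gene, with standard errors as bars and equal responses on the dashed line. Fabp4 lies near the line, at 1.46 in Notch2-11cKO and 1.27 in WT. The other 6 genes lie below it, Cd36 farthest, at 0.15 in Notch2-11cKO and 2.06 in WT.

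The difference between the responses, Notch2-11cKO minus WT, was tested as an interaction, and none of the 7 genes passed in limma (background 0.0100% higher and 0.0100% lower). It was negative for 6 of the 7, with a median of -0.82 against 0.01 over all genes, and an unadjusted p below 0.05 was reached by 4 of the 7 and by 6.47% of all genes. Cd36 had the largest value, -1.91 ± 0.48 (95% interval -2.96 to -0.86, adjusted p = 0.349). Plin2 followed with -1.14 ± 0.47 (adjusted p = 0.728), Fabp5 with -1.07 ± 0.48 (adjusted p = 0.767) and Lpl with -0.73 ± 0.33 (adjusted p = 0.766). Leaving out both arrays that stood apart, Cd36 (-2.13, adjusted p = 0.0413) and Plin2 (-1.67, adjusted p = 0.0104) passed, as did 604 genes in all against 4 on all arrays. The 4 genotype and treatment comparisons share arrays in pairs, so their values are not independent of each other.

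Of 97 other lipid genes on 7 lists, 87 were measured. In untreated cells 14 of these were higher and 1 was lower in Notch2-11cKO (median 0.05), and after SRBC 12 were higher and 2 lower (median 0.14), against medians of 3.00 and 1.95 for the 7 genes, which were chosen with such results known. Of all genes 2.95% were higher and 2.16% lower without treatment, and 3.36% were higher and 1.96% lower after SRBC. With SRBC, 3 of the 87 were higher and 3 lower in WT, against 1.82% higher and 1.97% lower of all genes. In WT 18 of the 87 (20.7%) had an unadjusted p below 0.05, against 16.8% of all genes. None passed in limma in Notch2-11cKO or in the difference between responses. There 17 and 9 of the 87 had an unadjusted p below 0.05, against 10% and 6.47% of all genes.

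**Figure D4:**
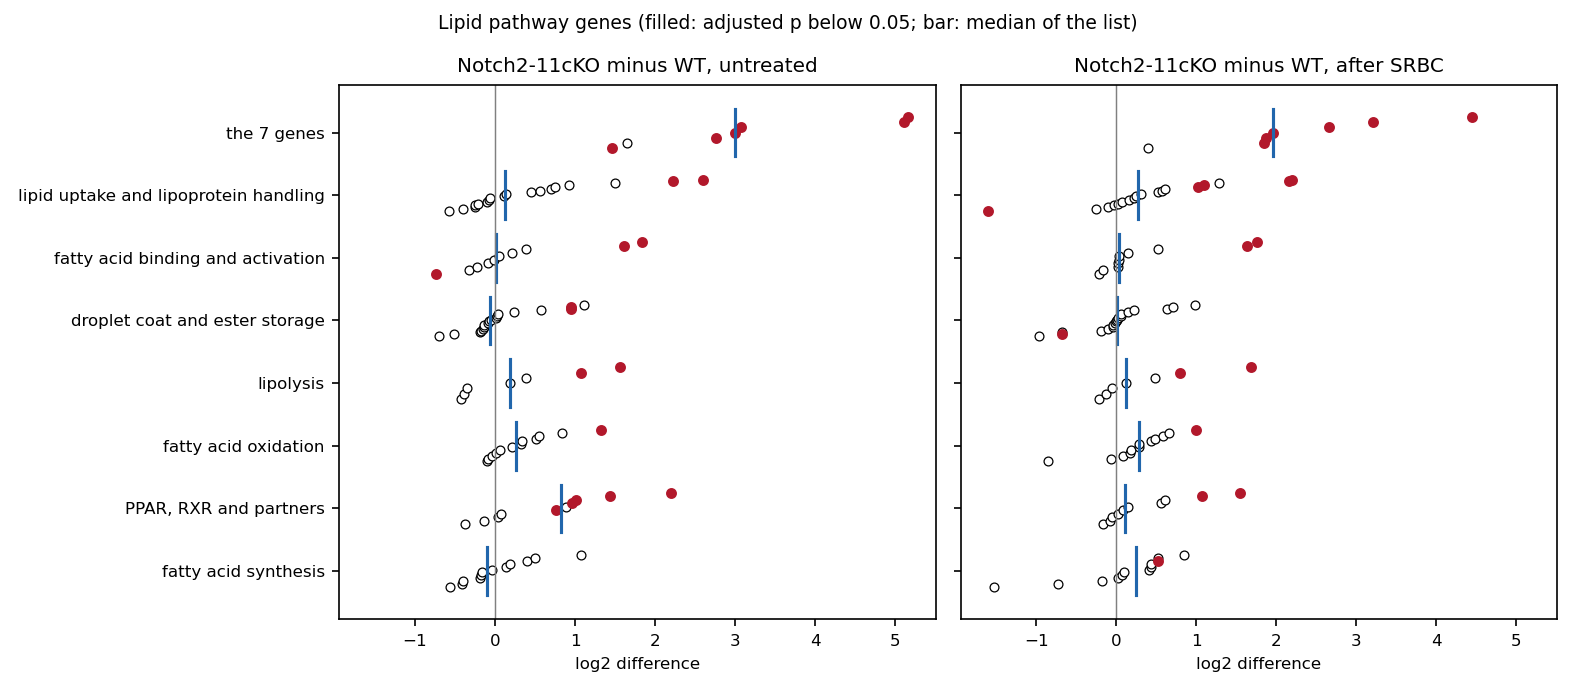
Log2 difference between Notch2-11cKO and WT (horizontal axis) of each measured gene of the 7 lists and of the 7 genes themselves (rows), in untreated cells (left) and after SRBC (right). Filled points had an adjusted p below 0.05 and vertical bars mark the median of a row. Both medians of the 7 genes, 3.00 and 1.95, lie to the right of all list medians.

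Among 18 genes of lipid uptake and lipoprotein handling, 2 were higher in untreated Notch2-11cKO, the phospholipid transfer protein Pltp (2.60 ± 0.27, adjusted p = 0.000198 in limma) and the lipoprotein and scavenger receptor Lrp1 (2.22 ± 0.31). After SRBC 4 were higher and 1 lower. Pltp (2.15 ± 0.22) and the lysosomal acid lipase Lipa (2.19 ± 0.36) were among those higher, and the apolipoprotein E receptor Lrp8 was lower (-1.61 ± 0.25). Lrp8 was also the member higher after SRBC in WT (2.08 ± 0.28, adjusted p = 0.00251 in limma).

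The relatives of the carriers and of the droplet coat split. Of 10 genes of fatty acid binding and activation, the acyl-CoA-binding protein Dbi (1.62 ± 0.26) and the liver-type Fabp1 (1.84 ± 0.31) were higher and the thioesterase Acot7 (-0.74 ± 0.19) was lower in untreated Notch2-11cKO, and Dbi (1.63 ± 0.21) and Fabp1 (1.75 ± 0.25) were higher after SRBC. Of 18 genes of droplet coats and ester storage, the perilipin Plin3 (0.95 ± 0.24) and the acyltransferase Agpat2 (0.95 ± 0.23) were higher in untreated Notch2-11cKO. After SRBC the acyltransferase Gpat4 was lower (-0.69 ± 0.18). Dgat1, which completes triglyceride synthesis, was higher after SRBC in WT (2.32 ± 0.51, adjusted p = 0.0299 in limma).

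The enzymes that release stored lipid had 2 of 7 members higher in Notch2-11cKO in both comparisons. The cholesteryl ester hydrolase Nceh1 gave 1.57 ± 0.30 without treatment and 1.69 ± 0.24 after SRBC, and the monoglyceride lipase Mgll gave 1.08 ± 0.25 and 0.79 ± 0.21 in the same order. For fatty acid oxidation 1 of 12 was higher in each genotype comparison, the mitochondrial entry enzyme Cpt1a without treatment (1.32 ± 0.26) and the thiolase Acaa2 after SRBC (0.99 ± 0.25). The mitochondrial carnitine carrier Slc25a20 was higher after SRBC in WT (1.31 ± 0.32). Of 12 genes of fatty acid synthesis none passed in limma between untreated genotypes, with 2 at an unadjusted p below 0.05 there (background 14.6%) and 6 after SRBC (background 17.4%). Acetyl-CoA carboxylase Acaca was higher in Notch2-11cKO after SRBC (0.52 ± 0.14) and lower after SRBC in WT (-0.63 ± 0.15).

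Of 10 measured genes on the list of related nuclear receptors, RXR and their partners, 5 were higher in untreated Notch2-11cKO (median 0.83). They were Cebpa (2.20 ± 0.25, adjusted p = 0.00036 in limma), which acts with PPAR-gamma in adipocytes, the liver X receptor Nr1h3 (1.43 ± 0.30), the obligate partner Rxra (0.96 ± 0.23), the related receptor Ppard (0.76 ± 0.18) and the coactivator Ppargc1b (1.01 ± 0.25). After SRBC Cebpa (1.55 ± 0.21) and Nr1h3 (1.07 ± 0.25) were higher. Rxrb was lower after SRBC in WT (-0.80 ± 0.17).

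Monocyte and macrophage markers moved with the same genotype contrast. Of 6 monocyte markers measured 5 were higher in Notch2-11cKO in both comparisons, and their mean log2 intensity was 8.27 to 8.70 in Notch2-11cKO SRBC, 8.79 to 9.04 in Notch2-11cKO untreated, 6.25 to 6.52 in WT SRBC and 6.27 to 6.42 in WT untreated. Of 12 macrophage markers 6 were higher without treatment and 7 after SRBC, with means of 6.99 to 7.29, 6.67 to 6.96, 6.06 to 6.56 and 5.34 to 5.55 in the same 4 groups. The macrophage marker Adgre1, encoding F4/80, was not among those higher, with group means of 8.03, 7.62, 8.29 and 8.45 in that order. Each array averages its sorted cells, so more cells of a type and more RNA per cell cannot be told apart, and the part of these cells in the lipid gene differences was not tested.

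**Figure D5:**
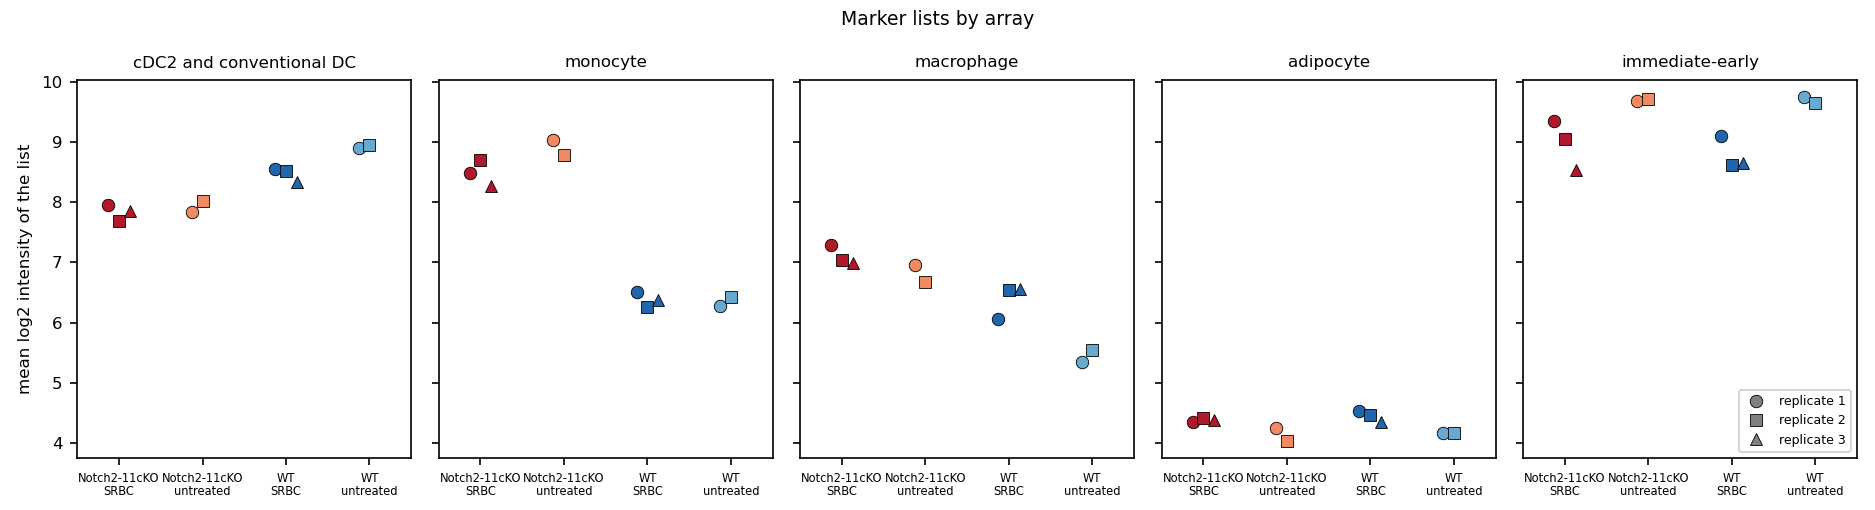
Mean log2 intensity of 5 marker lists on each array (vertical axis), by group (horizontal axis), with marker shapes for replicates. The cDC2 and conventional dendritic cell list is lower, and the monocyte and macrophage lists are higher, in Notch2-11cKO than in WT. The adipocyte list lies between 4.03 and 4.53 on all arrays, and the immediate-early list is lower after SRBC in both genotypes.

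Of 5 adipocyte markers measured, none passed between genotypes in limma (at an unadjusted p below 0.05, 0 without treatment and 1 after SRBC), and their mean was 4.34 to 4.42 in Notch2-11cKO SRBC, 4.03 to 4.25 in Notch2-11cKO untreated, 4.35 to 4.53 in WT SRBC and 4.16 in both WT untreated arrays. Adipoq, the adipocyte hormone adiponectin, had group means of 3.67, 3.30, 4.18 and 3.32 in the same order and was higher after SRBC in WT (0.86 ± 0.21, adjusted p = 0.0427 in limma). Endothelial cells also make Cd36 and Fabp4, and of 8 endothelial markers only Pecam1 passed between genotypes, lower in Notch2-11cKO without treatment (-2.10 ± 0.18) and after SRBC (-0.96 ± 0.15). Platelets carry CD36 protein, and of 5 platelet and megakaryocyte markers only Pf4 was higher in Notch2-11cKO (2.07 ± 0.32 without treatment and 2.97 ± 0.26 after SRBC). None of 4 erythroid markers passed between genotypes in limma (0 and 1 at an unadjusted p below 0.05), of 6 B cell markers Ms4a1 was lower in both, and of 7 eosinophil and neutrophil markers S100a8 was higher in Notch2-11cKO SRBC than in WT SRBC (1.59 ± 0.41).

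The genes most alike in pattern to each lipid gene were taken as the 3 with the highest Pearson r of log2 values over the 10 arrays, among 9358 brighter genes. Lpl was followed most closely by Fn1, Fcrls and Ccl6 (r 0.996, 0.996 and 0.995), Cd36 by Mpeg1, Slc2a6 and Selenop (r 0.989, 0.985 and 0.984) and Msr1 by F10, Capg and Cyp4f18 (r 0.991, 0.989 and 0.986). Fabp4 matched Eea1, Fibp and Cd14 (r 0.990, 0.964 and 0.959), and Fabp5 matched Atp2b1, Ctnna1 and Chd4 (r 0.946, 0.945 and 0.929). For Plin2 the 3 were Fam20c, Ccl2 and Dusp3 (r 0.989, 0.986 and 0.985), and for Pparg Apoe, Pilra and Mt1 (r 0.985, 0.983 and 0.983). These values describe 10 arrays that fall into 4 groups and share genotype and treatment. No gene appeared on more than 1 of the 7 lists of neighbours.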

How the data were processed

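The authors labelled RNA with biotin and deposited, per the labels' protocols and the series value table, intensity values on a linear scale for 28853 probe sets on 10 arrays. Their summarisation and normalization are not given in the sources used here, and no detection calls were used. The log2 of each value was taken. By the platform annotation, 21789 probe sets had 1 symbol, 1621 several and 5443 none. Each of 19938 genes was represented by its brightest probe set. Averaged over the 10 arrays all 7 lipid genes lay above the median gene, and 5 of them lay below it in untreated WT cells.

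One fit across all genes (limma 3.58.1 in R 4.3.3) modelled 4 group means with a trend of variance on level, on 6 residual and 5.25 prior degrees of freedom, for 5 comparisons, two-sided, with Benjamini-Hochberg adjustment over all genes and a threshold of 0.05. Adjusted p-values in the text come from it.

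The 7 genes, the 7 pathway and 9 marker lists and the naming rule (all 7 genes, up to 3 called members of a list with the smallest p, 3 neighbours by r) were chosen with earlier results of these data known. Marker genes named beside a list, such as Adgre1 and Adipoq, and 2 further genes of the nuclear receptor list, Ppard and Ppargc1b, were picked after their values were seen. The second Fabp5 probe set was added after the data were seen. Alternatives were the mean over probe sets of a gene, brighter genes only, quantile normalization, no variance trend, a replicate block, a fit restricted to the groups of each comparison, the immediate-early mean as a covariate, leaving out both arrays that stood apart, and leaving out each array in turn.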

Additional observations from a re-analysis of the deposited data

How the results depend on the processing

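Each comparison was repeated under 18 alternatives (17 for the difference between responses, which already uses all groups). The number of the 7 genes called stayed within 1.5 times for both genotype comparisons. With 1 array left out it was 5 to 7 without treatment and 5 to 6 after SRBC. For the WT response it was 0 with the immediate-early mean as a covariate, 5 without both arrays that stood apart, and 0 to 3 with 1 array left out. Without both such arrays it was 1 for the Notch2-11cKO response and 2 for the difference between responses. Signs turned only where no call was made. The immediate-early covariate followed treatment and cannot be separated from SRBC. With it the WT response was -0.030 for Lpl, -0.73 for Msr1, -0.72 for Fabp4 and -0.55 for Plin2, and the Notch2-11cKO response -0.0745 for Cd36 and -0.11 for Fabp4. Without both arrays that stood apart Pparg in Notch2-11cKO was 0.059 and the Fabp4 difference between responses -0.65. With 1 array left out, the Notch2-11cKO response ranged from -0.50 to 0.076 for Lpl, -0.39 to 0.69 for Cd36, -0.38 to 0.28 for Msr1, -0.47 to 0.23 for Fabp5 and -0.27 to 0.059 for Pparg, and the Fabp4 difference between responses from -0.33 to 0.63. The other Fabp5 probe set gave 0.11 in Notch2-11cKO. The cause of these shifts was not tested. The call of Fabp5 without treatment was also lost without a mean-variance trend (adjusted p = 0.052). Over all genes, calls with 1 array left out ranged from 418 to 1390 without treatment (1019 on all arrays), 649 to 1256 after SRBC (1061), 2 to 183 in the Notch2-11cKO response (61), 101 to 1331 in the WT response (756) and 0 to 44 in the difference (4). Under the other alternatives the ranges were 979 to 1996, 627 to 2364, 6 to 398, 280 to 2300 and 2 to 604. A lone array left in a group was assumed to vary like the other groups.

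Replicate numbers are shared between groups, but nothing says that they mark a shared mouse or day. Deviations from group means correlated between -0.22 and 0.48 for 13 same-numbered pairs of arrays, over 0.1 in 7 of them. For 24 differently numbered pairs they ran from -0.51 to 0.41, over 0.1 in 7. In groups of 2 arrays the deviations mirror each other, so the pairs are not independent. These values do not settle whether the numbers pair the samples. The main fit left the samples unpaired, with a replicate block as an alternative. With the replicate block, 7 genes were called between untreated genotypes, since Fabp4 passed (1.65, adjusted p = 0.0171 in limma), and the calls of the 7 genes in the other 4 comparisons were the same. No detection calls were used, so readings near the floor, such as Lpl in WT, may understate the fold changes.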
